A study of Mus musculus with 13 samples.

Results

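The genes described here carry long-chain fatty acids into a muscle cell, bind and activate them, store them or burn them. They were taken as a list of 43 mouse gene symbols, and all 43 were found among the 16382 genes of the tables. A mean of at least 10 normalized counts over the 12 libraries was required, and 41 genes met it. Ehhadh and Ucp3 did not meet it and are described by their levels only. All 41 were among the 13142 genes that entered the test.

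RNA-seq was carried out on wild-type C2C12 myotubes, the multinucleated cells that C2C12 mouse myoblasts form in low serum. On day 8 of differentiation, cultures were switched to medium with the vehicle DMSO (CON) or with 10 μM palmitoylethanolamide (PEA), a fatty acid amide, and lysed after 24 h. There were 6 libraries per treatment. C2C12 is a single immortal line, so the libraries are repeat cultures of 1 line and not separate animals. The labels describe duplicate wells, which are technical replicates, in repeated experiments without saying which libraries share an experiment. The independent experiments per treatment were therefore fewer than the 6 libraries. All tests below treat the libraries as independent, so p-values measure only the spread between these libraries, which is in part technical.

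Lipoprotein lipase frees fatty acids from circulating triglyceride, and Cd36 and the Slc27a transporters help them across the membrane. Acyl-CoA synthetases join them to coenzyme A, after which they are stored in droplets or passed to the carnitine shuttle, whose entry enzyme is carnitine palmitoyltransferase 1. Inside mitochondria the beta-oxidation enzymes shorten them in cycles and hand electrons to the electron transfer flavoproteins, while Pdk4 shuts down pyruvate dehydrogenase and so spares glucose. Many of these genes are known targets of the PPAR nuclear receptors, which fatty acids activate.

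The comparison asked which of these genes differed between PEA and CON. After PEA, 10 of the 41 genes passed edgeR's quasi-likelihood test at a Benjamini-Hochberg adjusted p-value of 0.05, 6 of them higher and 4 lower. The genes that rose were Lpl, Pdk4, Angptl4, Acot2, Lipe and Cpt1a, which act in lipolysis of triglyceride, in the choice of fuel, at the entry to the carnitine shuttle and in acyl-CoA hydrolysis. Those that fell were Cd36, Fabp3, Hadhb and Acsl3, which act in uptake, binding, the last step of beta-oxidation and activation. The 10 called genes were 24.4% of the list, against 11.0% of all genes tested. The higher calls were 14.6% of the list against 6.31% of all genes, and the lower calls 9.76% against 4.74%. For 5 genes (12.2%) the normalized counts of both treatments lay fully apart, against 4.34% of all genes. The list was chosen with earlier results of these data known, so these shares describe it and test nothing. Its genes also had a smaller median SE than all genes, 0.06 against 0.078. In a further list of the same pathways, also described below, 59 genes were tested and 6.78% were called. The list did not move one way as a whole, with a median log2 fold change of -0.02, against 0.005 over all genes, and with 20 genes above 0 and 21 below.

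**Figure D1:**
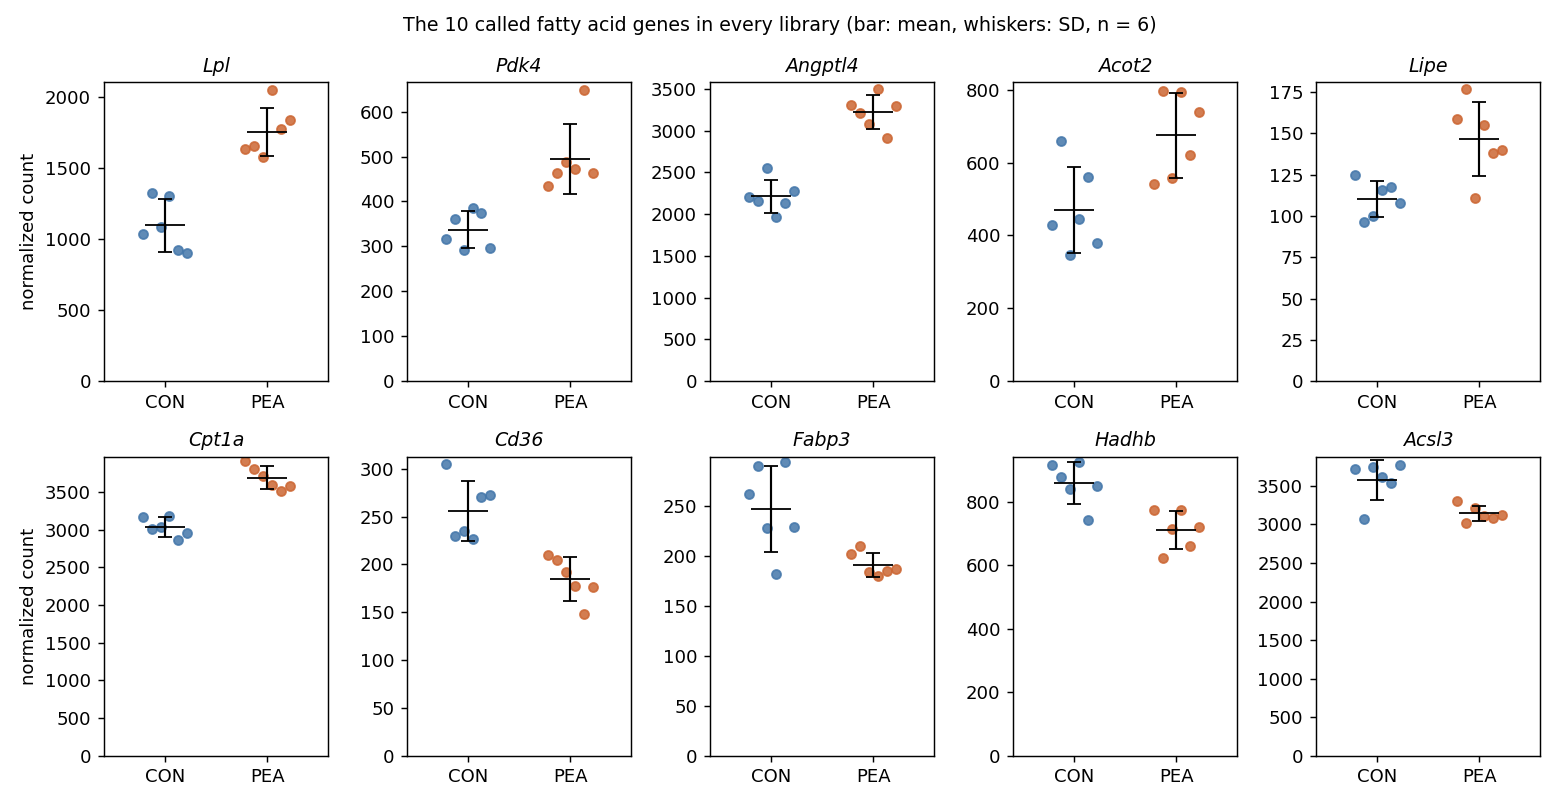
Normalized count (vertical axis, linear from 0) of the 10 called genes in the 6 CON and 6 PEA libraries, one point per library, with the mean as a bar and the SD as whiskers. Lpl, Pdk4, Angptl4 and Cpt1a lay above every CON library in all 6 PEA libraries, Cd36 lay below in all 6, and the other 5 genes overlapped.

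Totals ran from 12354845 to 50397444 estimated counts per library, and CON replicate 1 had 2.25 times the total of the next deepest. On the first principal component (30.1% of variance) CON replicate 2 lay among the PEA libraries, and CON replicates 3 and 6 lay farthest from them. Without CON replicates 3 and 6, a choice made after the data had been seen, 4 genes of the list were higher and 2 lower, against 471 higher and 370 lower over all genes, and Lipe, Acot2, Fabp3 and Acsl3 no longer passed. When a trend with GC content and exon length was removed from each library, the split was 5 higher and 9 lower in the list, and over all genes it turned from 829 higher and 623 lower to 700 higher and 1274 lower. That removal also took out each library's mean deviation over genes. The median log2 fold change moved from 0.005 to -0.036 over all genes and from -0.02 to -0.065 in the list. The part of this shift in the added lower calls was not tested. Expression of all 24 myotube markers was detected. Of these, 7 were lower after PEA (29.2%, against 4.74% lower over all genes) and none higher. Their summed normalized counts were 166900 to 254700 in CON and 173700 to 197000 in PEA. Of 12 markers of proliferating myoblasts, 8 were higher (66.7%, against 6.31% higher over all genes) and none lower. Their sums were 8545 to 11560 in CON and 12270 to 14800 in PEA. In such bulk samples fewer cells of a type and less RNA per cell cannot be told apart, and the part of these markers in the results below was not tested. Of 12 adipocyte markers, 5 were in the tables, where Plin1 had means of 0.262 and 1.77 and the summed level was 599 to 810 in CON and 804 to 880 in PEA. All 4 endothelial markers in the tables and 3 of the 4 macrophage markers there had means below 10. The part of the adipocyte markers in the results was not tested either. Cebpa, a transcription factor, and Lipe were the 2 adipocyte markers called higher, and Lipe is itself one of the genes described here.

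Promoter sequences are given for 3 called genes whose groups did not overlap, of which 2 rose and 1 fell. RefSeq windows of 300 bases (GRCm38.p6), from 250 bases before an annotated start to 50 after it, were at hand for 35 of the 43 genes, 39 windows in all. A gene can have several starts, and its window need not lie at the outer end of the gene position given below. Angptl4, Cpt1b, Fabp4, Fabp5, Decr1, Acaa2, Hsd17b4 and Lpl had no entry. Capitals mark AGGTCA, the half-site that many nuclear receptors bind, or its reverse complement. The Pdk4 window lies at chr6:5496229-5496528 on the minus strand, the Cpt1a window at chr19:3323051-3323350 on the plus strand, and the Cd36 window at chr5:17835847-17836146 on the minus strand.
Pdk4: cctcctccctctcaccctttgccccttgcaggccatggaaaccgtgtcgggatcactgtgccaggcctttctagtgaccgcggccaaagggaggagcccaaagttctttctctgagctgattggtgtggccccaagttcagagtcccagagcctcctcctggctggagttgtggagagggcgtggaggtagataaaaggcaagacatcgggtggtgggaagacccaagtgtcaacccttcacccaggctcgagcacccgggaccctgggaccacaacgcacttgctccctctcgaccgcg
Cpt1a: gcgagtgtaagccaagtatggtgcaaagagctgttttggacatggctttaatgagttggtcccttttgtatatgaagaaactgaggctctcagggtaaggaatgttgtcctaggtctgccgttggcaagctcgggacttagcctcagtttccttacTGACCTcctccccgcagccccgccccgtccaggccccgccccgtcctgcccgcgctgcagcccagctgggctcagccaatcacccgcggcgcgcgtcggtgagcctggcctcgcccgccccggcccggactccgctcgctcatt
Cd36: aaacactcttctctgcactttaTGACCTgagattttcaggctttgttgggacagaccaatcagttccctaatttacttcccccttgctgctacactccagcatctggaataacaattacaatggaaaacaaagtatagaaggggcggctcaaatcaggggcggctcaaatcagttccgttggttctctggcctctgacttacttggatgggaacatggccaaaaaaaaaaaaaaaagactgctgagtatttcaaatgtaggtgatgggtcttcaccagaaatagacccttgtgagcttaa
The half-site occurred once in the Cpt1a window and once in the Cd36 window, and not in the Pdk4 window. The window shown for a gene that rose and that for a gene that fell thus both held it. It was present on either strand in 7 of the 39 windows of these genes (17.9%), those of Acadm, Acadvl, Cd36, Cpt1a, Echs1, Plin2 and Ucp3, against 16.3% of all 32851 windows. Direct repeats of AGGTCA with 1 base between the copies, the arrangement known for PPAR and RXR pairs, were searched on both strands, also with the fourth base of each copy free. Neither form was present in a window of the listed genes, and over all windows they were present in 0.0396% and 0.381%. These letters describe short windows at annotated starts and say nothing about sites elsewhere in the genes.

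Pdk4, the kinase that inactivates pyruvate dehydrogenase, rose after PEA. It lies on chromosome 6 at 5483097 to 5496339 (GRCm39, as are all gene positions below). Its normalized count was 293 at the lowest, 339 at the median and 386 at the highest in CON, and 434, 468 and 647 in PEA. The groups did not overlap, and PEA replicate 5 lay well above the other PEA libraries. The mean was 338 ± 40.8 (SD, n = 6) in CON and 495 ± 76.8 in PEA, a log2 fold change of 0.56 ± 0.10 (SE; edgeR's quasi-likelihood test, adjusted p = 0.00339), or 47.3% more. Without PEA replicate 5 the log2 fold change was 0.47 and the adjusted p from edgeR 0.00607. None of the other pyruvate dehydrogenase kinases passed the test: Pdk1 had a log2 fold change of -0.24, Pdk2 of 0.06 and Pdk3 of 0.05.

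Lpl and its inhibitor Angptl4 both rose. Lpl, on chromosome 8 at 69284603 to 69360100, had the largest increase of the list. It stood at 899, 1061 and 1327 normalized counts in the lowest, median and highest CON library and at 1576, 1715 and 2045 in PEA. No CON library reached the lowest PEA library. The mean rose from 1096 ± 183 to 1753 ± 172, a log2 fold change of 0.68 ± 0.09 (edgeR, adjusted p = 0.000529), or 60.3% more. Angptl4, a secreted protein that inactivates lipoprotein lipase, lies on chromosome 17 at 33992724 to 34000804. The lowest, median and highest libraries had 1966, 2182 and 2555 normalized counts in CON and 2910, 3254 and 3501 in PEA, again without overlap. The mean rose from 2216 ± 196 to 3218 ± 203, a log2 fold change of 0.54 ± 0.06 (edgeR, adjusted p = 0.000236), the smallest adjusted p of the list. Their balance was compared as a ratio, chosen after the values had been seen. Per kb of the canonical transcript, Angptl4 stood at 2.58 ± 0.52 times Lpl in CON and 2.30 ± 0.19 times in PEA (two-sided exact permutation test over libraries, p = 0.288). Between single libraries that ratio ran from 1.88 to 3.16 in CON and from 2.04 to 2.52 in PEA, so the PEA libraries lay inside the range of CON.

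Of the 6 genes of membrane uptake and intracellular binding, 2 fell (33.3%, against 4.74% lower over all genes), none rose and 4 did not pass. Cd36, the fatty acid translocase, lies on chromosome 5 at 17986432 to 18094067. Its normalized count was 226, 253 and 305 at the lowest, median and highest CON library, and 148, 185 and 210 in PEA. All 6 PEA libraries lay below all 6 CON libraries. The mean fell from 256 ± 31.3 to 185 ± 22.7, a log2 fold change of -0.48 ± 0.11 (edgeR, adjusted p = 0.0102), or -28.1%. Fabp3, the fatty acid binding protein of heart and skeletal muscle, lies on chromosome 4 at 130202388 to 130209259. In CON the lowest, median and highest libraries had 182, 246 and 294 normalized counts, and in PEA 180, 186 and 210. The groups overlapped, since CON replicate 4, at 182, lay among the PEA libraries, and the PEA libraries kept closer together (SD 11.9, against 43.0 in CON). The log2 fold change was -0.37 ± 0.11 (edgeR, adjusted p = 0.0425). This call was near the threshold and was lost in 10 of the 12 fits that left out 1 library, all but those without CON replicate 3 or 4. Over all 12 fits the adjusted p-values from edgeR ran from 0.0114 to 0.0891. The call was also lost in limma (adjusted p = 0.0503). Over 37.0% of its exon length Fabp3 overlaps Zcchc17 on the opposite strand, and the strand setting of the counting was not given in the sources used here. Zcchc17 itself had means of 940 and 906 (log2 fold change -0.05, edgeR, adjusted p = 0.598). Among the other listed genes, the longest opposite-strand overlaps were those of Acadvl (38.2%, with Dvl2) and Acsl5 (37.3%, with Zdhhc6).

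The other fatty acid binding proteins did not pass. Fabp5, the epidermal form, had means of 308 ± 64.0 in CON and 326 ± 40.4 after PEA (log2 fold change 0.09, 95% interval -0.15 to 0.32). Fabp4, the adipocyte form, was scarce, with means of 27.4 ± 11.4 and 22.5 ± 9.36, and its interval ran from -0.96 to 0.30. Fabp3 relative to Fabp5, per kb of transcript, was 0.98 ± 0.16 in CON and 0.72 ± 0.11 in PEA, a log2 difference of -0.45 (two-sided exact permutation test, p = 0.013). After Benjamini-Hochberg adjustment its permutation p was 0.039 over the 3 planned ratios and 0.0585 over all 6, of which 3 were added after the values had been seen. The CON libraries ran from 0.77 to 1.17 and the PEA libraries from 0.58 to 0.90, so the groups overlapped. The fatty acid transport proteins Slc27a1 and Slc27a4 had log2 fold changes of -0.15 (95% interval -0.27 to -0.03, edgeR, adjusted p = 0.108) and -0.11 (adjusted p = 0.197). Slc27a1 was the more abundant, with means of 3318 ± 238 and 2979 ± 244, against 1128 ± 80.4 and 1043 ± 55.2 for Slc27a4.

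The long-chain acyl-CoA synthetases, which attach coenzyme A to a fatty acid, gave 1 lower call among 4 (25.0%, against 4.74% lower over all genes). Acsl3, an isoform of the endoplasmic reticulum and lipid droplets, lies on chromosome 1 at 78635537 to 78685461. Normalized counts were 3068, 3665 and 3770 at the lowest, median and highest CON library and 3023, 3120 and 3308 in PEA. Only CON replicate 2, at 3068, lay within the range of PEA, and the other 5 CON libraries lay above it. The mean fell from 3576 ± 262 to 3144 ± 100, a log2 fold change of -0.18 ± 0.05 (edgeR, adjusted p = 0.0272), the smallest called change of the list. The call was lost in 6 of the 12 fits without 1 library (CON replicate 1 or 6, or PEA replicate 2, 4, 5 or 6), with adjusted p-values up to 0.0683. Acsl3 shares 15.4% of its exon length with Utp14b on the same strand, which had a log2 fold change of -0.10 (edgeR, adjusted p = 0.51). Acsl1, Acsl4 and Acsl5 did not pass, with log2 fold changes of 0.11, 0.06 and 0.10, and no interval among them went beyond 0.23. The change in Acsl3 in the opposite direction to the values of the other isoforms was not tested as a difference.

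Storage and lipolysis gave 1 higher call among 3 (33.3%, against 6.31% higher over all genes). Lipe, hormone-sensitive lipase, lies on chromosome 7 at 25078880 to 25098135. Its normalized count was 96.6, 112 and 125 at the lowest, median and highest CON library and 111, 148 and 177 in PEA. PEA replicate 3, at 111, lay within the range of CON, and the other 5 PEA libraries lay above every CON library. The mean rose from 110 ± 10.9 to 147 ± 22.4, a log2 fold change of 0.41 ± 0.13 (edgeR, adjusted p = 0.0456), and the call held in only 2 of the 12 fits without 1 library, those without CON replicate 1 or PEA replicate 3 (range of adjusted p 0.0207 to 0.107). It was also lost with the GC and length trend removed (edgeR, adjusted p = 0.0554). Pnpla2, the lipase that takes the first fatty acid off triglyceride, had means of 1165 ± 101 and 1181 ± 104 (log2 fold change 0.02, 95% interval -0.11 to 0.15). Plin2, the coat protein of lipid droplets, ran from 7106 to 8197 in CON with a median of 7768 and from 7709 to 8404 in PEA with a median of 7927. The groups overlapped in part, and the log2 fold change of 0.05 had an interval from -0.04 to 0.13.

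**Figure D2:**
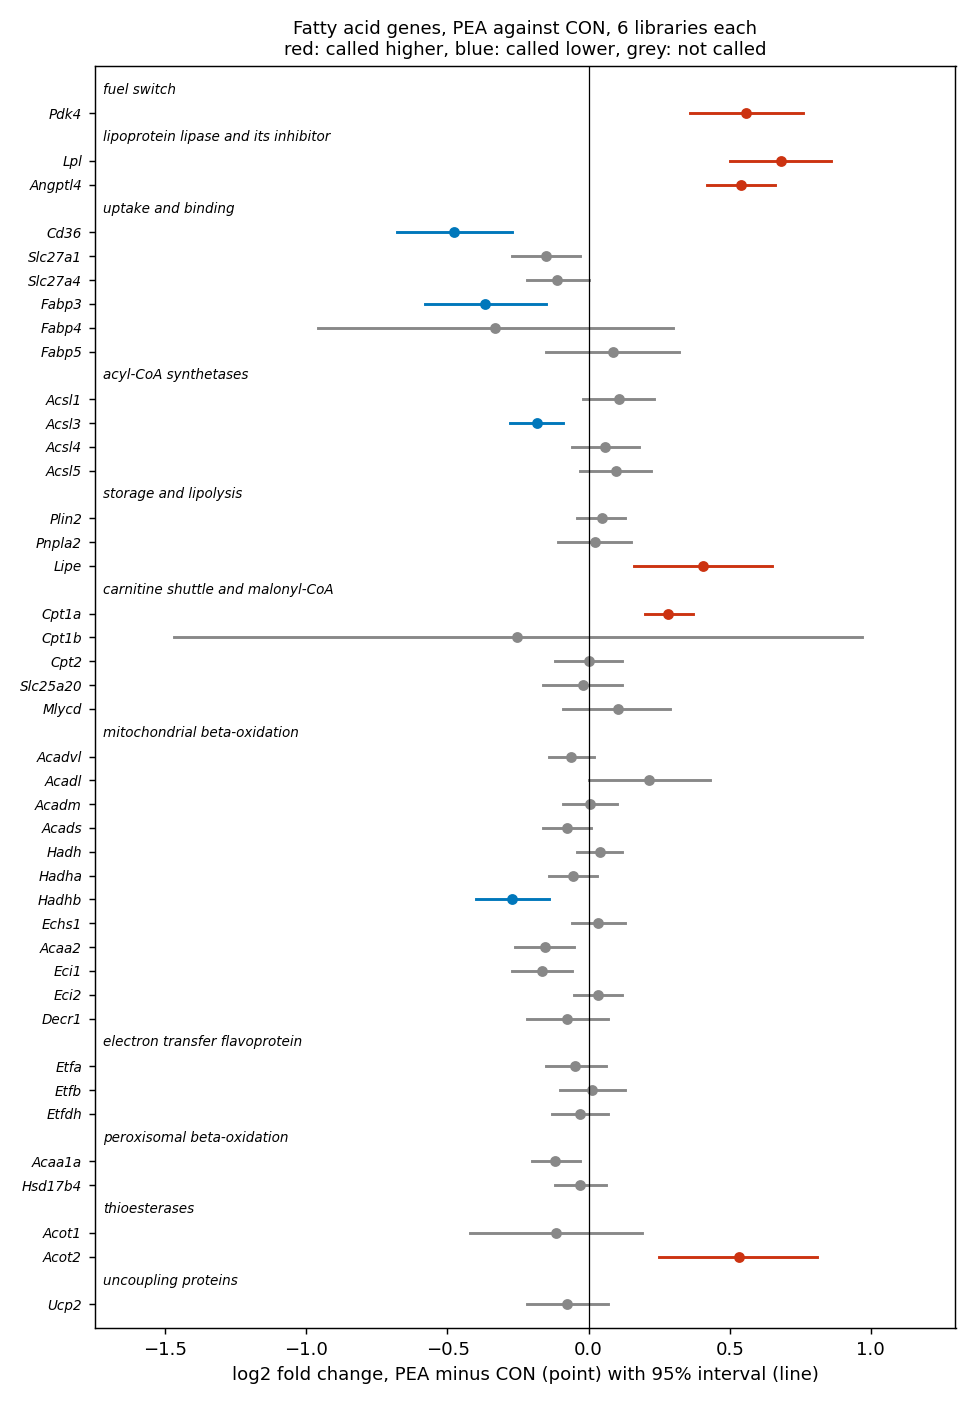
Log2 fold change between PEA and CON (horizontal axis, PEA minus CON, point) with its 95% interval (line) for the 41 tested genes, grouped by role, from 6 libraries per treatment. The 6 genes called higher (red) and the 4 called lower (blue) were spread over 8 of the 11 roles, and Cpt1b had the widest interval, from -1.47 to 0.97.

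In the carnitine shuttle, the entry enzyme Cpt1a rose and the later steps did not pass. Cpt1a, the liver-type isoform of carnitine palmitoyltransferase 1, lies on chromosome 19 at 3371853 to 3437996. Counts after normalization were 2857, 3023 and 3184 at the lowest, median and highest CON library and 3514, 3655 and 3915 in PEA. The groups did not overlap and both were narrow. The mean rose from 3035 ± 127 to 3688 ± 151, a log2 fold change of 0.28 ± 0.04 (edgeR, adjusted p = 0.000937), or 21.6% more. Cpt2, the inner membrane enzyme, had means of 835 ± 59.4 and 835 ± 57.9, with an interval of the log2 fold change from -0.12 to 0.12. Slc25a20, the carnitine-acylcarnitine carrier between them, had a log2 fold change of -0.02 (interval -0.16 to 0.12). Mlycd, which breaks down malonyl-CoA, the natural inhibitor of Cpt1, had one of 0.10 (interval -0.09 to 0.29).

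The muscle-type isoform Cpt1b had few counts in these myotubes. Its normalized count was 3.25, 22.5 and 27.6 at the lowest, median and highest CON library and 1.28, 9.33 and 44.0 in PEA, so the PEA libraries spanned more than the whole range of CON. The log2 fold change of -0.25 had an interval from -1.47 to 0.97 (edgeR, adjusted p = 0.831), and it moved to -1.03 without PEA replicate 4 and to -0.02 without PEA replicate 3. Per kb of transcript, Cpt1a averaged 460 normalized counts in CON and Cpt1b 6.02, and the ratio of Cpt1b to Cpt1a was 0.013 ± 0.008 in CON and 0.0086 ± 0.0095 in PEA (two-sided exact permutation test, p = 0.262). Cpt1b shares 68.5% of its exon length with Gm44502, an annotated gene on the same strand that was not analysed here, and 59.1% of its 31-base stretches occur in that gene. Its level is therefore uncertain.

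The 12 genes of mitochondrial beta-oxidation gave 1 lower call, Hadhb (8.33%, against 4.74% lower over all genes), and no higher call. Hadhb encodes the thiolase subunit of the mitochondrial trifunctional protein and lies on chromosome 5 at 30359204 to 30389997. Levels of 742, 863 and 926 normalized counts were measured at the lowest, median and highest CON library and of 623, 717 and 775 in PEA. CON replicate 5, at 742, lay within the range of PEA, and 2 PEA libraries lay above it. The mean fell from 858 ± 66.7 to 711 ± 60.4, a log2 fold change of -0.27 ± 0.07 (edgeR, adjusted p = 0.016), or -17.2%. The call held in all 12 fits without 1 library.

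Hadha, the partner subunit, starts head to head with Hadhb on the opposite strand, and the RefSeq windows at their starts share 228 of 300 bases. Its means were 4030 ± 234 in CON and 3867 ± 90.9 after PEA (log2 fold change -0.06, interval -0.14 to 0.03, edgeR, adjusted p = 0.431). The ratio of Hadhb to Hadha per kb of transcript was 0.43 ± 0.05 in CON and 0.37 ± 0.03 in PEA, a comparison chosen after the values had been seen. Its log2 difference was -0.21 (two-sided exact permutation test, p = 0.0368, 0.0736 after adjustment over 6 ratios), so a difference between the subunits did not pass the adjusted threshold. Hadha and Hadhb also overlap on opposite strands, over 9.8% of the exon length of Hadha and 5.9% of that of Hadhb. The part of this overlap in the ratio was not tested.

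The acyl-CoA dehydrogenases, which begin each cycle, did not pass. Acadvl, for very long chains, Acadm, for medium chains, and Acads, for short chains, had log2 fold changes of -0.06, 0.005 and -0.07, and their intervals lay within -0.16 and 0.10. Acadl, for long chains, differed widely between CON libraries, from 3578 in CON replicate 3 and 3669 in CON replicate 6 to 6361 in CON replicate 2. In PEA it ran from 5149 to 5823. The SD was 1046 in CON and 273 in PEA, and the log2 fold change of 0.21 did not pass (interval 0.00 to 0.43, edgeR, adjusted p = 0.21). Without CON replicate 2 it was 0.31 and passed (adjusted p = 0.0245), and without CON replicates 3 and 6 it was 0.05 (adjusted p = 0.732).

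The remaining enzymes of the cycle lay on either side of 0. Eci1, an enoyl-CoA isomerase needed for unsaturated chains, was nearest to the threshold, with means of 796 ± 41.9 and 709 ± 45.8 (log2 fold change -0.17, edgeR, adjusted p = 0.063). Acaa2, a thiolase, followed with 1814 ± 126 and 1626 ± 108 (log2 fold change -0.16, adjusted p = 0.0768). Decr1, the dienoyl-CoA reductase, had a log2 fold change of -0.08. Hadh, Echs1 and Eci2, a dehydrogenase, a hydratase and a second isomerase, had log2 fold changes of 0.04, 0.03 and 0.03, and no interval among them went beyond 0.13. The electron transfer flavoproteins Etfa, Etfb and Etfdh had log2 fold changes of -0.05, 0.01 and -0.03, with no interval beyond 0.15 in either direction. Etfb shares 39.6% of its exon length with Etfbl, which was not analysed here. Of the 13 mitochondrially encoded genes, none was called by edgeR, with a median log2 fold change of -0.14 and a lowest adjusted p of 0.0908.

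**Figure D3:**
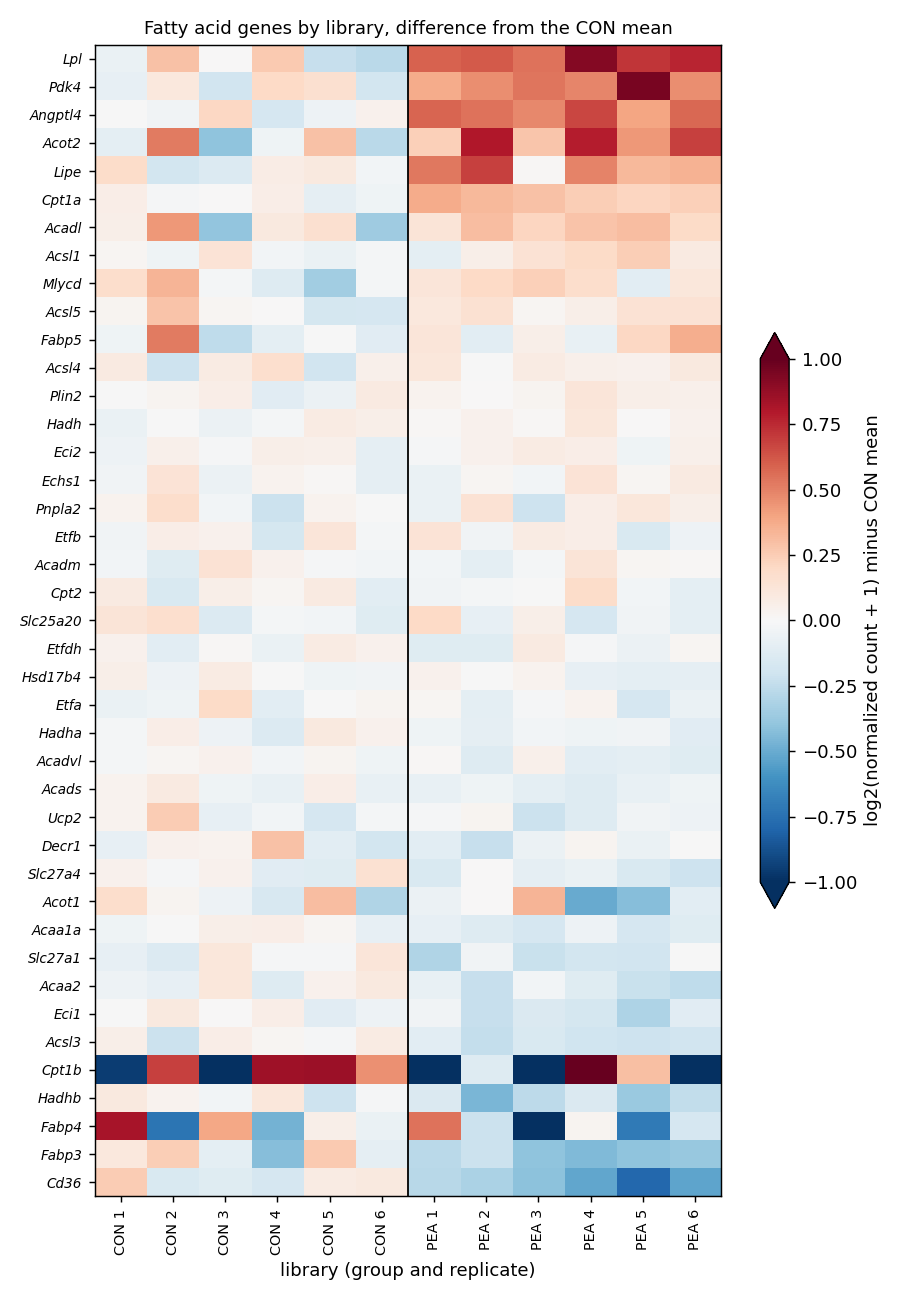
Difference of log2(normalized count + 1) from the CON mean (colour, red higher and blue lower, cut at 1 either way) for the 41 tested genes (rows, ordered by log2 fold change) in the 12 libraries (columns). Lpl, Pdk4, Angptl4 and Cpt1a are higher in every PEA library than in any CON library and Cd36 is lower, whereas Acadl runs from 3578 to 6361 normalized counts among the CON libraries. Cpt1b and Fabp4, near the bottom and with low counts, overlap widely between the groups.

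Peroxisomal beta-oxidation, which shortens very long chains, gave no call among 2 genes tested. Acaa1a, a peroxisomal thiolase, had means of 1338 ± 53.9 and 1231 ± 39.6 (log2 fold change -0.12, edgeR, adjusted p = 0.086). Hsd17b4, the D-bifunctional protein, had a log2 fold change of -0.03 (interval -0.12 to 0.06). Ehhadh, the L-bifunctional protein, was at 9.10 ± 3.78 normalized counts in CON and 7.30 ± 4.72 in PEA.

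Of the acyl-CoA thioesterases, which release a free fatty acid from coenzyme A, the mitochondrial Acot2 rose and its cytosolic neighbour Acot1 did not pass. Acot2 lies on chromosome 12 at 84034428 to 84040647 and Acot1 at 84056256 to 84065145. The normalized count of Acot2 was 346, 437 and 658 at the lowest, median and highest CON library and 541, 679 and 797 in PEA. CON replicates 2 and 5, at 658 and 562, lay within the range of PEA, and the other 4 CON libraries lay below it. The mean rose from 470 ± 118 to 674 ± 116, a log2 fold change of 0.53 ± 0.14 (edgeR, adjusted p = 0.0261), and the call was lost in 5 of the 12 fits without 1 library (CON replicate 1 or 6, or PEA replicate 2, 4 or 6), with adjusted p-values up to 0.0656. Acot1 was lower in level, at 86.1, 105 and 132 in CON and 74.8, 101 and 135 in PEA, and the PEA libraries spanned more than the range of CON. Its log2 fold change was -0.12 (interval -0.42 to 0.19). The ratio of Acot2 to Acot1 per kb, chosen after the values had been seen, was 4.17 ± 0.92 in CON and 6.77 ± 2.13 in PEA (two-sided exact permutation test, p = 0.0195, 0.0585 after adjustment over 6 ratios). The genes are near copies, 28.5% of the 31-base stretches of Acot2 occur in Acot1, and reads there could be split between them, so the values of both are uncertain.

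The uncoupling proteins, inner membrane carriers linked to fatty acid oxidation, showed no call. Ucp2 ran from 412 to 553 normalized counts in CON with a median of 455 and from 398 to 470 in PEA with a median of 449, and its log2 fold change of -0.07 had an interval from -0.22 to 0.07. Ucp3, the muscle form, was barely present, at 0 to 11.0 normalized counts in CON and 0 to 6.12 in PEA, with 1 library at 0 in each group. The ratio of Ucp3 to Ucp2 needed 1 count added because of those zeros, and it did not pass (two-sided exact permutation test, p = 0.981).

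Levels between genes were compared per kb of the canonical transcript. Plin2 was the highest, at 3826 normalized counts per kb over the 12 libraries, followed by Acadl at 2072, Etfb at 1553, Etfa at 1177 and Acadvl at 1161. The called genes lay across the range, from Acsl3 at 881 and Angptl4 at 821 per kb to Cd36 at 62.9 and Lipe at 32.8. At the bottom were Fabp4 at 18.3, Cpt1b at 5.37, Ehhadh at 2.74 and Ucp3 at 1.32, with the place of Cpt1b uncertain because of the sequence it shares with Gm44502. Angptl4 moved from 670 per kb in CON, below Acsl3, to 973 in PEA, above it.

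**Figure D4:**
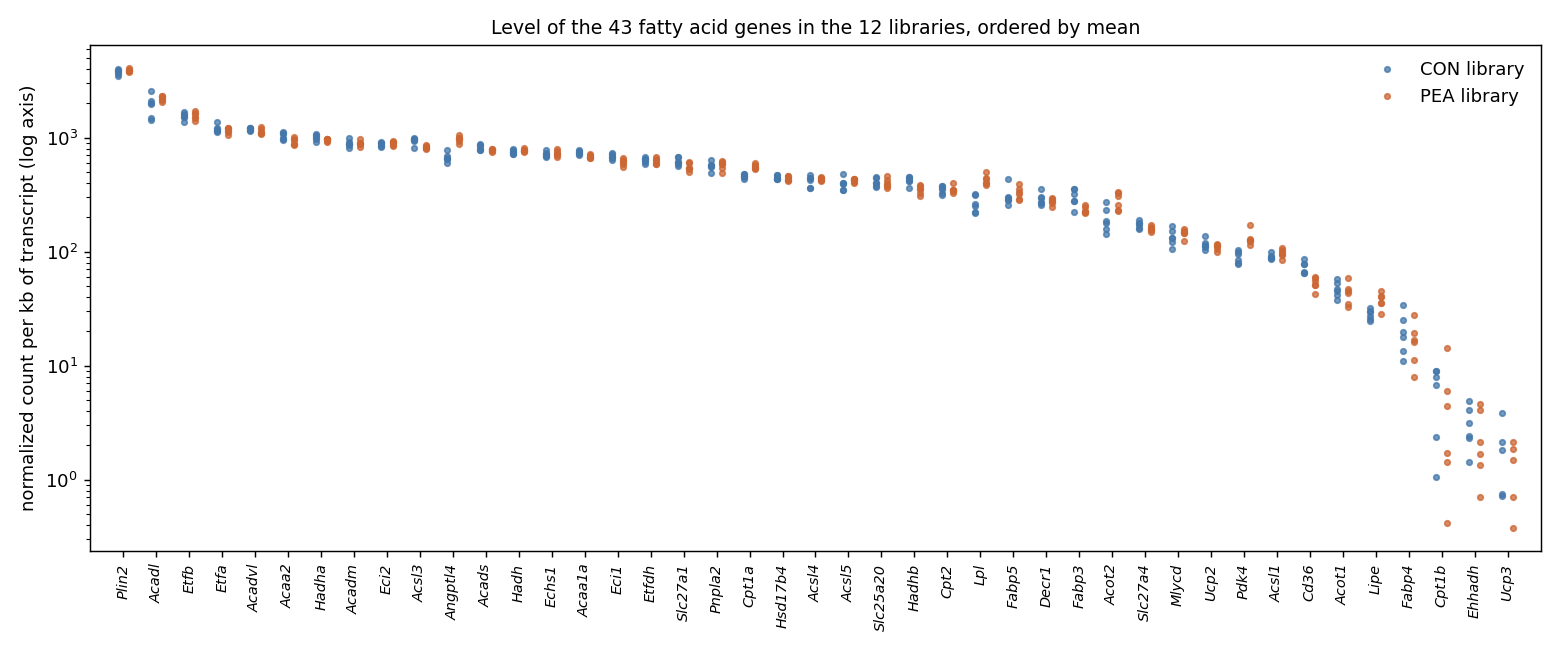
Normalized count per kb of the canonical transcript (vertical log axis) of the 43 genes, ordered by their mean, with one point per CON and PEA library; the 2 libraries with no Ucp3 count cannot be drawn on a log axis. Plin2 stands highest at a mean of 3826 per kb, and Cpt1b, Ehhadh and Ucp3 scatter below 15 per kb.

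A further list of 75 genes of the same pathways gave fewer calls. Of these, 64 were in the tables and 59 were tested, with 2 higher and 2 lower, together 6.78% against 11.0% of all genes. Slc27a3, an acyl-CoA synthetase of the transport protein family, rose from 54.5 ± 10.3 to 99.7 ± 13.8 normalized counts without overlap (log2 fold change 0.88, edgeR, adjusted p = 0.00352), and Lpin1, a phosphatidate phosphatase of triglyceride synthesis, rose from 329 ± 66.3 to 470 ± 55.4 (0.51, adjusted p = 0.0147). Acot9, a mitochondrial thioesterase, fell from 2522 ± 146 to 2199 ± 142 without overlap (-0.20, adjusted p = 0.023), and Mgll, monoacylglycerol lipase, fell from 101 ± 18.0 to 68.4 ± 14.9 (-0.57, adjusted p = 0.0425). None of 10 tested genes of carnitine handling and the pyruvate switch was called, with Cpt1c nearest (edgeR, adjusted p = 0.0523), and none of 13 peroxisomal genes.

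The called genes differed in how firmly they held. Pdk4, Lpl, Angptl4, Cd36, Cpt1a and Hadhb passed in all 20 alternative fits. Acot2, Acsl3, Lipe and Fabp3 kept their direction in all of them and lost the call in some. Of the 31 genes not called, 7 (Slc27a1, Acsl5, Acadl, Acads, Acaa2, Eci1 and Acaa1a) passed in at least 1 alternative. Slc27a1, Acads, Acaa2, Eci1 and Acaa1a did so with the GC and length trend removed, Slc27a1, Acsl5, Acadl and Acaa2 without CON replicate 2, Acaa2 also without CON replicate 4, and Eci1 also without PEA replicate 1 and in DESeq2. The 95% interval of none of the 31 except Cpt1b and Fabp4 reached a log2 fold change of 0.5 in either direction.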

How the data were processed

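RNA was enriched for poly-A, and libraries were sequenced in 6 CON and 6 PEA samples. Per the labels, the authors used STAR 4.4.1d, mm39, Partek and DESeq2, and deposited estimated counts per gene. The other deposited table is a signal on a linear scale: these counts over a library-wide factor, called normalized counts here. PEA replicate 2 and its top-up run share 1 row and entered as 1 library. Genes with identifiers above the last one in the tables (2240 protein-coding genes) were not analysed here. GENCODE M39 (GRCm39) named 16343 of 16382 identifiers.

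Estimated counts were rounded and tested with edgeR 4.0.16 in R 4.3.3 (quasi-likelihood test, TMM, default filter, Benjamini-Hochberg adjustment over all genes, threshold 0.05). On simulated data for this comparison (13064 genes) it recovered 93 of 98 genes changed by a log2 fold of 1, 73 of 99 by 0.5, and made 8 false calls. The simulated libraries were independent and their dispersion followed the fitted trend alone. Duplicate wells and outlying libraries were not simulated, so these rates need not hold for the real data. Intervals are 1.96 SE on either side, a normal approximation that is somewhat narrower than edgeR's test implies. Acadl, for example, had an interval from 0.00 to 0.43 at an unadjusted p of 0.0625 in edgeR. Ratios were tested over all 924 assignments of libraries to groups, where p cannot be below 0.00216. The 43 genes, the further lists and the tests were chosen with earlier results of these data known. All 43 genes are named, those called and those of most interest in the pathway with their lowest, median and highest library. Alternatives were DESeq2 1.42.0, limma 3.58.1 on log2(normalized count + 1), other size factors, filters and thresholds, a replicate block, a GC and length trend, and leaving out libraries. Errors cover counting and library-to-library spread alone.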

Additional observations from a re-analysis of the deposited data

Results flagged for a closer look

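Single libraries stood apart from the others of their treatment in 6 of the 86 combinations of gene and treatment examined, where the gap to the nearest library, over the group's range, exceeded Dixon's critical value of 0.625 for 6 libraries. Chance gives about 1 in 20. Pdk4 in PEA replicate 5 was at 647 normalized counts, with the other PEA libraries at 434 to 487. Fabp5 in CON replicate 2 was at 434, with the others at 254 to 302, and without that library the log2 fold change of Fabp5 was 0.21 (edgeR, adjusted p = 0.132) in place of 0.09. Acsl3 in CON replicate 2 was at 3070, with the others at 3540 to 3770, and without it the log2 fold change of Acsl3 was -0.22 (edgeR, adjusted p = 0.00132). Cpt2 in PEA replicate 4 was at 947, with the others at 778 to 830. Hadh in the same library was at 1450, with the others at 1340 to 1380. Mlycd in PEA replicate 5 was at 382, with the others at 447 to 485, a gap at the critical value after rounding. Of the 6 values, 2 were in CON replicate 2, 2 in PEA replicate 4 and 2 in PEA replicate 5.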

How the results depend on the processing

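The count of listed genes called higher was 6 and stayed between 4 and 7 without any 1 library. The count called lower was 4 and became 9 with the GC and length trend removed, 0 at an adjusted p below 0.01, 2 without CON replicates 3 and 6 together, and 2 to 5 without 1 library (2 without CON replicate 1 or 6 or PEA replicate 2, 4, 5 or 6). Over all genes, higher calls numbered 829, with 282 at an adjusted p below 0.01, 471 without CON replicates 3 and 6, and 492 to 1232 without 1 library (536 without CON replicate 6, 501 without PEA replicate 5, 492 without PEA replicate 6). Lower calls numbered 623, with 1274 after removal of the GC and length trend, 123 at an adjusted p below 0.01, 370 without CON replicates 3 and 6, and 286 to 971 without 1 library (971 without CON replicate 2, and 286 to 405 without CON replicate 5 or 6 or PEA replicate 2, 4, 5 or 6). Among the further pathway genes, higher calls were 1 at an adjusted p below 0.01 and 2 to 5 without 1 library (5 without CON replicate 2, 4 without PEA replicate 1), and lower calls were 4 in DESeq2, 6 with the trend removed, 0 at an adjusted p below 0.01 and 0 to 4 without 1 library (0 without PEA replicate 4 or 6, 1 without CON replicate 1, 5 or 6 or PEA replicate 3 or 5, 4 without CON replicate 2). The stricter threshold lowers counts by construction, and the other causes were not tested.

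The replicate numbers did not pair the libraries. Deviations of same-numbered libraries correlated at -0.083 to 0.065, and none of the 6 numbers was its own best match. With the number as a replicate block, Lipe lost its call (edgeR, adjusted p = 0.061), and the ratio of Fabp3 to Fabp5 kept its log2 difference of -0.449 with p = 0.0938 (exact sign-flip permutation over 6 pairs). No other call among the listed genes or ratios changed under the block. The log2 difference of Hadhb to Hadha lay between -0.275 and -0.165 without 1 library, and its unadjusted p rose above 0.05 in 7 of 12 cases (without CON replicate 1, 2, 3 or 4 or PEA replicate 2, 3 or 5). No called gene changed sign in any fit. Of the 31 genes not called, 10 changed sign in at least 1 fit. The ratio of Ucp3 to Ucp2 without an added count could not be computed.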
